A study of Mus musculus with 28 samples.

Results

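Cytochrome P450 enzymes were followed in the skin of mice given spleen cells from another strain or from their own. The members are all genes whose symbol reads Cyp, digits, letters, digits in the array annotation and that had a measured value in at least 12 of 24 mice. Of 75 such symbols on the array, 62 met this rule, among 19532 named genes in all. At the limit, Cyp1a2, Cyp2c29 and Cyp3a16 were measured in 12 mice and kept, while Cyp2j5, Cyp4f15 and Cyp7a1 were measured in 11 and left out. The other symbols left out were Cyp24a1, Cyp2a12, Cyp2a5, Cyp2ab1, Cyp2c54, Cyp2d34, Cyp2r1, Cyp4a29, Cyp4a31 and Cyp8b1.

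Skin was taken 2 weeks after spleen cells were transferred into balb/c mice, a model of chronic graft-versus-host disease in which grafted T cells attack the host. Donors were either B10.D2, in which case the recipients are termed allo mice, or balb/c, in which case they are termed syn mice. Every recipient was rag2-/- and so could not form T or B cells of its own. Rag2-/- recipients without a further deletion comprised 5 allo and 4 syn mice. Recipients that were also IL13-/- (Il13-deficient) comprised 4 allo and 4 syn mice. Recipients that were also IL4Ra-/- (Il4ra-deficient), and so lacked a receptor chain shared by IL-4 and IL-13, comprised 4 allo and 3 syn mice. The labels name no deletion in the grafted cells. Each value is the log2 ratio of skin RNA, labelled with Cy3, to a commercial mouse reference RNA, labelled with Cy5, on a 2-colour Agilent array. A difference of 1 on this scale is a 2-fold change, and a ratio says nothing of the level of one gene against that of another.

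P450 enzymes hold a heme group and use oxygen and electrons from a partner protein to add a hydroxyl group or an epoxide to small, mostly fat-soluble molecules. Families 1 to 4 act on foreign compounds and on fatty acids, and several members of family 4 act on the very long fatty acids of the epidermal barrier or on inflammatory lipids. Other members make or break single signals: the Cyp26 enzymes degrade retinoic acid, Cyp27b1 activates vitamin D, Cyp11a1 begins steroid hormone synthesis, and Cyp7b1 and Cyp39a1 hydroxylate oxysterols. Skin holds P450 enzymes in keratinocytes, sebaceous glands and immune cells.

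The arrays held 28 hybridisations of 24 mice, with the arrays of one mouse averaged. Keratinocyte markers lay far above the reference in every mouse, with a mean log2 ratio over 6 genes of 4.28 to 5.54. A deposited ratio of exactly 0 was read as not measured, which applied to 2.41% to 36.8% of probes per array. Of the 62 P450 genes, 40 had values from 2 or more mice in all 6 groups and were tested, and 22 were not. In 34 of the 62 (17 tested and 17 untested) at least 50% of values recurred in 30 or more probes of the same array, as they do for dim spots, so a ratio near 0 for those genes may reflect little signal in either channel. In Il13-deficient recipients, syn mice 6229 and 6234 stood apart in an earlier account of these data. Their hair follicle markers averaged 4.76 and 5.69 (mean over the 2 listed genes measured in all mice), against 1.41 and 1.62 in the other syn mice of that group, and the counts and calls that rest on that group are also given without them. Mouse numbers begin with 57 or 61 in Rag2-/- recipients, with 45 or 57 in Il4ra-deficient recipients and with 62 in each Il13-deficient one. Comparisons of Il13-deficient with Rag2-/- recipients are therefore also comparisons of number series, and these cannot be told apart. Mouse 5718 carries a label naming IL14Ra and was counted as Il4ra-deficient. The labels of mice 4533 and 6230 and of 1 of the 2 arrays of mouse 6232 write a slash and a single minus after IL4Ra or IL13, and these mice were counted with their groups.

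In Rag2-/- recipients 9 of the 40 tested P450 genes passed the test of allo against syn, 3 higher and 6 lower. The 6 that fell were Cyp2g1, Cyp2f2, Cyp39a1, Cyp2j6, Cyp4b1 and Cyp4f39, by 2.02-fold to 10.1-fold. The 3 that rose were Cyp4f18, Cyp1b1 and Cyp4f16, by 0.59 to 0.83 on the log2 scale. This is 22.5% of the tested members, against 28.2% of all 14783 genes tested; 7.5% rose and 15% fell, against 12.6% and 15.6% of all genes. Their median log2 difference was -0.23, and that of all genes was -0.08. The share of calls lay below that of all genes. Calls rest on limma's moderated test with Benjamini-Hochberg adjustment over all 14783 genes at 0.05. In these bulk skin samples, fewer cells of a type and less RNA per cell cannot be told apart.

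**Figure D1:**
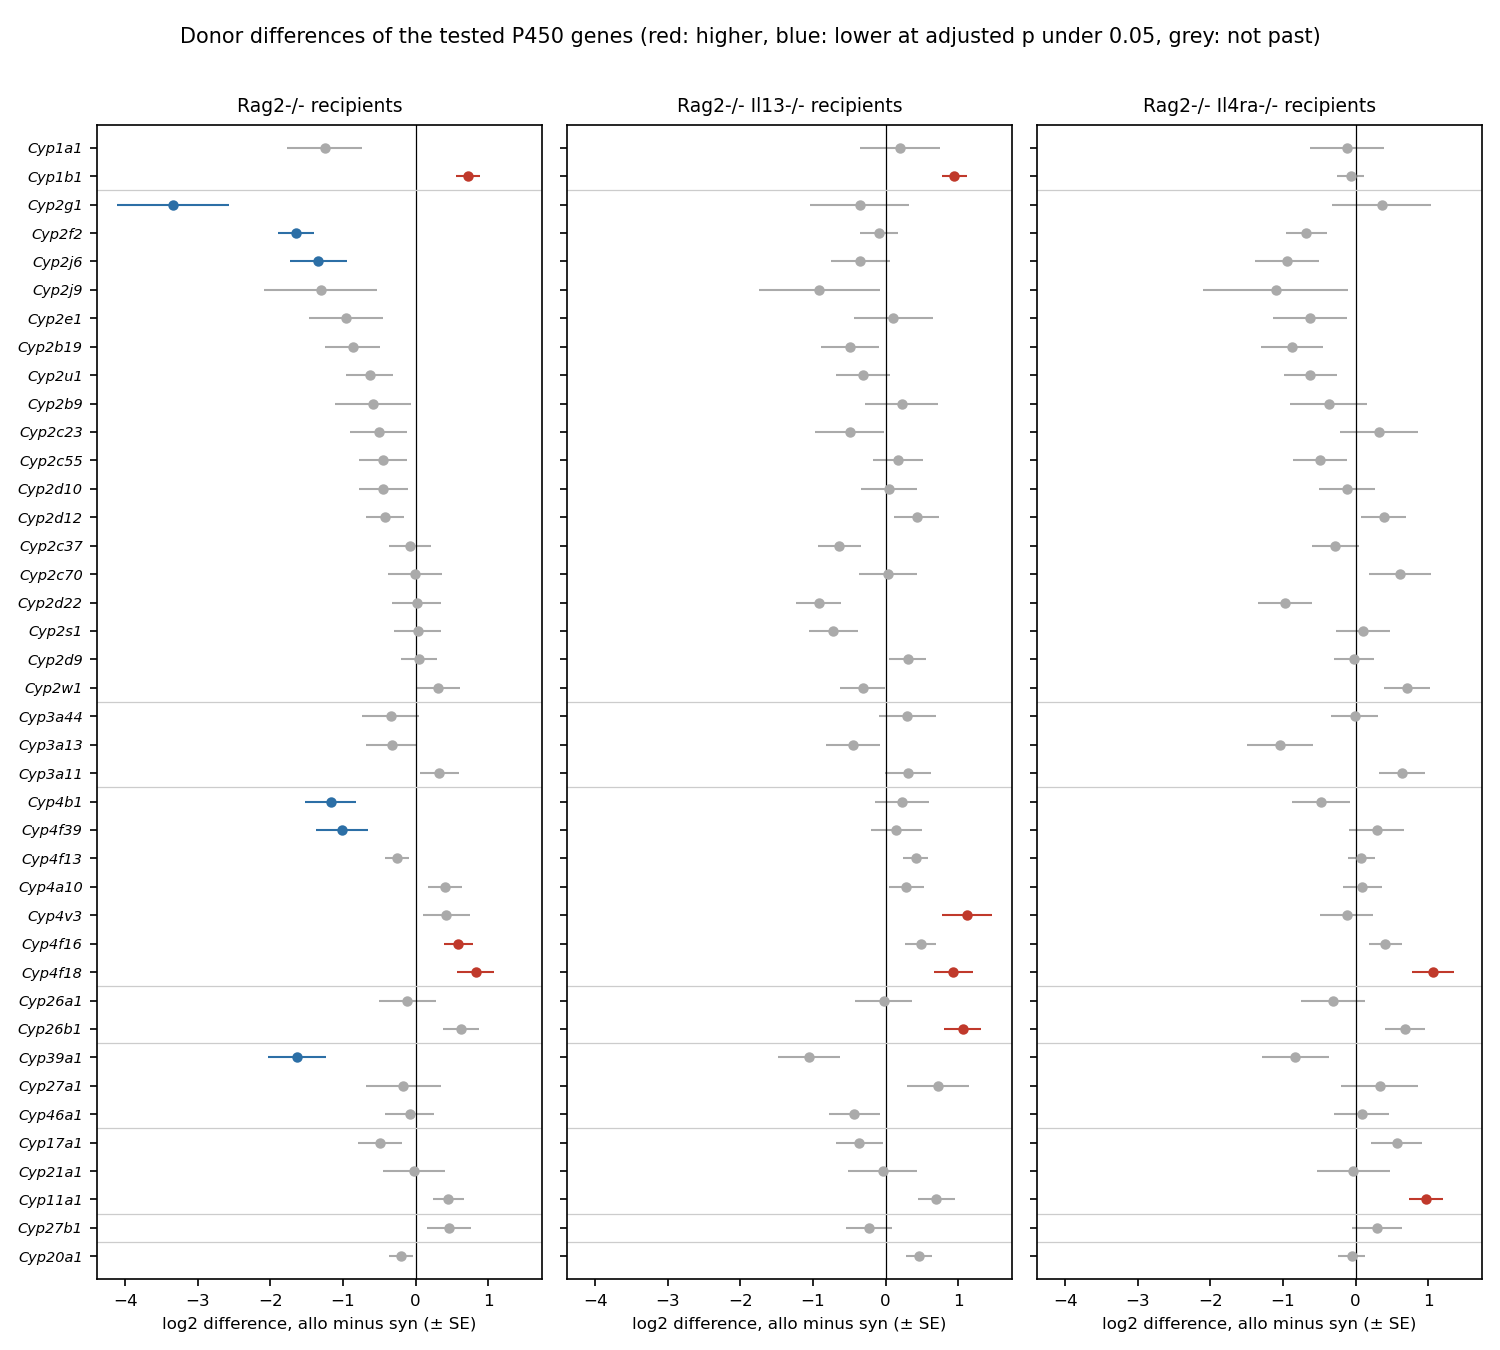
Log2 difference of allo minus syn skin (horizontal axis, ± SE) for each of the 40 tested P450 genes in Rag2-/-, Il13-deficient and Il4ra-deficient recipients, from left to right, with grey lines between roles. Filled red points passed as higher and blue points as lower. The 6 blue points all lie in the Rag2-/- panel, Cyp2g1 farthest left at -3.34, and Cyp4f18 is red in all 3 panels.

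Promoters are among the places where receptors for foreign compounds, retinoids and fatty acids act on P450 genes. Only the 250 bases before the start were searched. These stretches are shown for 4 of the genes called in Rag2-/- recipients, 2 that rose (Cyp1b1 and Cyp4f18) and 2 that fell (Cyp2f2 and Cyp4f39). They are RefSeq sequences of build GRCm38.p6, read 5′ to 3′ on the strand of the gene, and 49 of the 62 members had at least 1 such promoter, 56 in all. Capitals mark GCGTG, the core bound by the aryl hydrocarbon receptor, and AGGTCA, the core recognised by many nuclear receptors. A match on the opposite strand reads as its reverse complement, CACGC for GCGTG.
Cyp1b1, chr17:79715062-79715311, minus strand: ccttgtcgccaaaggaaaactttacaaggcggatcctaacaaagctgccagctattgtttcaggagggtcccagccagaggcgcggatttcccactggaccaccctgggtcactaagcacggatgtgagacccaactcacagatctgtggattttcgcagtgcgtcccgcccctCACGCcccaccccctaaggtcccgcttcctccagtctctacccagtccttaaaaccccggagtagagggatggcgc
Cyp4f18, chr8:72009627-72009876, minus strand: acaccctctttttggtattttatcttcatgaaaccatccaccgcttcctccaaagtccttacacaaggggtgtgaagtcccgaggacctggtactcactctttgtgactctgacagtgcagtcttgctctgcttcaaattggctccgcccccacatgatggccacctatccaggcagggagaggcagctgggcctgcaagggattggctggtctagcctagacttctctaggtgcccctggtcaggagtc
Cyp2f2, chr7:27119705-27119954, plus strand: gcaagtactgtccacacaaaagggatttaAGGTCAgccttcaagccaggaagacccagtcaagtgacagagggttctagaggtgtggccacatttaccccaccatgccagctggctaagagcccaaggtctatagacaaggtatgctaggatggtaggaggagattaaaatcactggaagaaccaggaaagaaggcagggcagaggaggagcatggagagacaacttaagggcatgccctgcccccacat
Cyp4f39, chr17:32452473-32452722, plus strand: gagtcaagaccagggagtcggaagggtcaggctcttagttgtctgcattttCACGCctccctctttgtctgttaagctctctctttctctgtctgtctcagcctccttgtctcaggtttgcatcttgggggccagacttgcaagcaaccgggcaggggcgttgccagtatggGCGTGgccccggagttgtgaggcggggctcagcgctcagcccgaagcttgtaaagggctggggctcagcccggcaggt
The motifs were searched on both strands, and overlapping matches were all counted. GCGTG lay in 13 of the 56 P450 promoters (23.2%), against 28.2% of the 32851 promoters in the table. AGGTCA also lay in 13 of 56 (23.2%), against 14.0% of all promoters. TTCNNNGAA, a pattern bound by STAT proteins, lay in 3 P450 promoters (5.36%), against 7.02% of all. With 1 more N between its arms, the spacing preferred by Stat6, it lay in 2 (3.57%), against 5.85% of all. A match is a run of letters and not a measured site.

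Family 2, the largest P450 family, held 33 members, 18 of them tested. In Rag2-/- recipients 3 of the 18 fell (16.7%) and 0 rose in limma's test, against 15.6% and 12.6% of all genes. Their median difference was -0.48, and that of all genes -0.08. Cyp2g1, a P450 known from the olfactory mucosa, had ratios of 2.94, 0.82, 4.01 and 4.50 in 4 allo mice, against 5.70 and 7.11 in 2 syn mice; the remaining 3 mice gave no value. All measured allo mice lay below both syn mice. The mean was 3.07 ± 1.63 (SD, n = 4) in allo and 6.40 ± 0.99 (SD, n = 2) in syn mice, a 10.1-fold lower ratio in allo (log2 -3.34, SE 0.77, limma adjusted p = 0.00404). A second probe for Cyp2g1 read -0.64 and 1.45 in 2 allo mice, against 0.23 and 1.29 in 2 syn mice, a difference of -0.35. With the median of both probes the difference was -1.11 (limma adjusted p = 0.624), and with exact 0 kept as a value it was -0.19 (adjusted p = 0.928), so the call for Cyp2g1 rests on 1 probe and on the reading of 0.

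Cyp2f2, which activates naphthalene in the airway cells of mice, had the lowest adjusted p of the members in this comparison. Its ratios were 4.16, 3.66, 3.94, 3.90 and 4.45 in allo mice, against 5.89, 5.55, 5.67 and 5.54 in syn mice. The groups were more than 1 log2 unit apart at their closest, and each was narrow. Allo mice averaged 4.02 ± 0.30 (SD, n = 5) and syn mice 5.66 ± 0.16 (SD, n = 4), so Cyp2f2 was 3.12-fold lower in allo mice (log2 -1.64, SE 0.25, limma adjusted p = 5.59e-05). Within number series 57 the difference of Cyp2f2 was -1.80 (2 allo and 3 syn mice), and within series 61 it was -1.45 (3 allo mice and 1 syn mouse). No alternative setting or left-out mouse ended this call, although series 61 alone did not pass (limma adjusted p = 0.0688).

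Cyp2j6, of a subfamily that makes epoxides of arachidonic acid, fell 2.53-fold. Allo mice had 2.72, 1.27, 2.40, 3.09 and 2.44, against 4.06, 3.75, 3.78 and 3.29 in syn mice. No allo mouse reached the lowest syn mouse, and mouse 5704 was the lowest of the allo mice. The log2 difference was -1.34 (SE 0.39, limma adjusted p = 0.0139), and -0.35 without a call when exact 0 was kept as a value. Of the other family 2 members, Cyp2b19, the keratinocyte epoxygenase of mouse epidermis, averaged 3.04 ± 0.64 (SD, n = 5) in allo and 3.90 ± 0.31 (SD, n = 4) in syn mice and did not pass (log2 -0.87, limma adjusted p = 0.0902). Cyp2e1, which oxidises ethanol and other small molecules, averaged 5.08 ± 0.55 (SD, n = 4) in allo and 6.04 ± 0.27 (SD, n = 3) in syn mice and did not pass either.

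Family 4 held 9 members, 7 of them tested, and moved both ways in Rag2-/- recipients. In limma's test 2 fell and 2 rose (28.6% each), against 15.6% and 12.6% of all genes. Cyp4b1, which hydroxylates fatty acids and activates foreign compounds, had 5.25, 5.01, 5.05, 5.32 and 6.22 in allo mice, against 6.28, 6.13, 6.24 and 7.50 in syn mice. Allo mouse 6154 lay inside the syn range, while the other 4 allo mice lay below it. The mean was 5.37 ± 0.49 (SD, n = 5) in allo and 6.54 ± 0.64 (SD, n = 4) in syn mice (log2 -1.17, SE 0.35, limma adjusted p = 0.0179). Without syn mouse 6153 the difference of Cyp4b1 was -0.85 and did not pass, and quantile normalization, the first array of each mouse and the mouse as a random block also ended the call.

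Cyp4f39 is the mouse counterpart of human CYP4F22, which hydroxylates the very long fatty acids of barrier ceramides. Its ratios were 2.69, 3.36, 4.08, 3.45 and 3.17 in allo mice, against 4.70, 4.52 and 3.87 in 3 syn mice. The groups overlapped through allo mouse 6151. The difference was -1.01 (SE 0.36, limma adjusted p = 0.042), the largest adjusted p of the 9 calls. It was lost when any of 6 single mice (5700, 5701, 5702, 5704, 6152 or 6154) was left out, with quantile normalization and with the first array of each mouse, and with exact 0 kept as a value it was 0.08 (adjusted p = 0.963).

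Cyp4f18, which in mouse neutrophils inactivates the chemoattractant leukotriene B4, rose. Allo mice had 0.29, 0.70, 0.08, 0.06 and -0.15, against -0.67, -0.48, -0.53 and -0.86 in syn mice. The lowest allo mouse exceeded the highest syn mouse. The log2 difference was 0.83 (SE 0.26, limma adjusted p = 0.0201), a 1.78-fold rise; it did not pass without allo mouse 5704 or without syn mouse 6153. Of its values, 75% recurred as they do in dim spots. Cyp4f16 had a mean of 0.01 ± 0.34 (SD, n = 5) in allo and -0.58 ± 0.23 (SD, n = 4) in syn mice, and it rose by 0.59 (SE 0.20, limma adjusted p = 0.0309). A second probe for Cyp4f16, measured in the same mice, differed by -0.04, and the call was lost without any of 4 single mice (5700, 5703, 5704 or 6151), with exact 0 kept, with the median over probes and with the number series as a block.

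**Figure D2:**
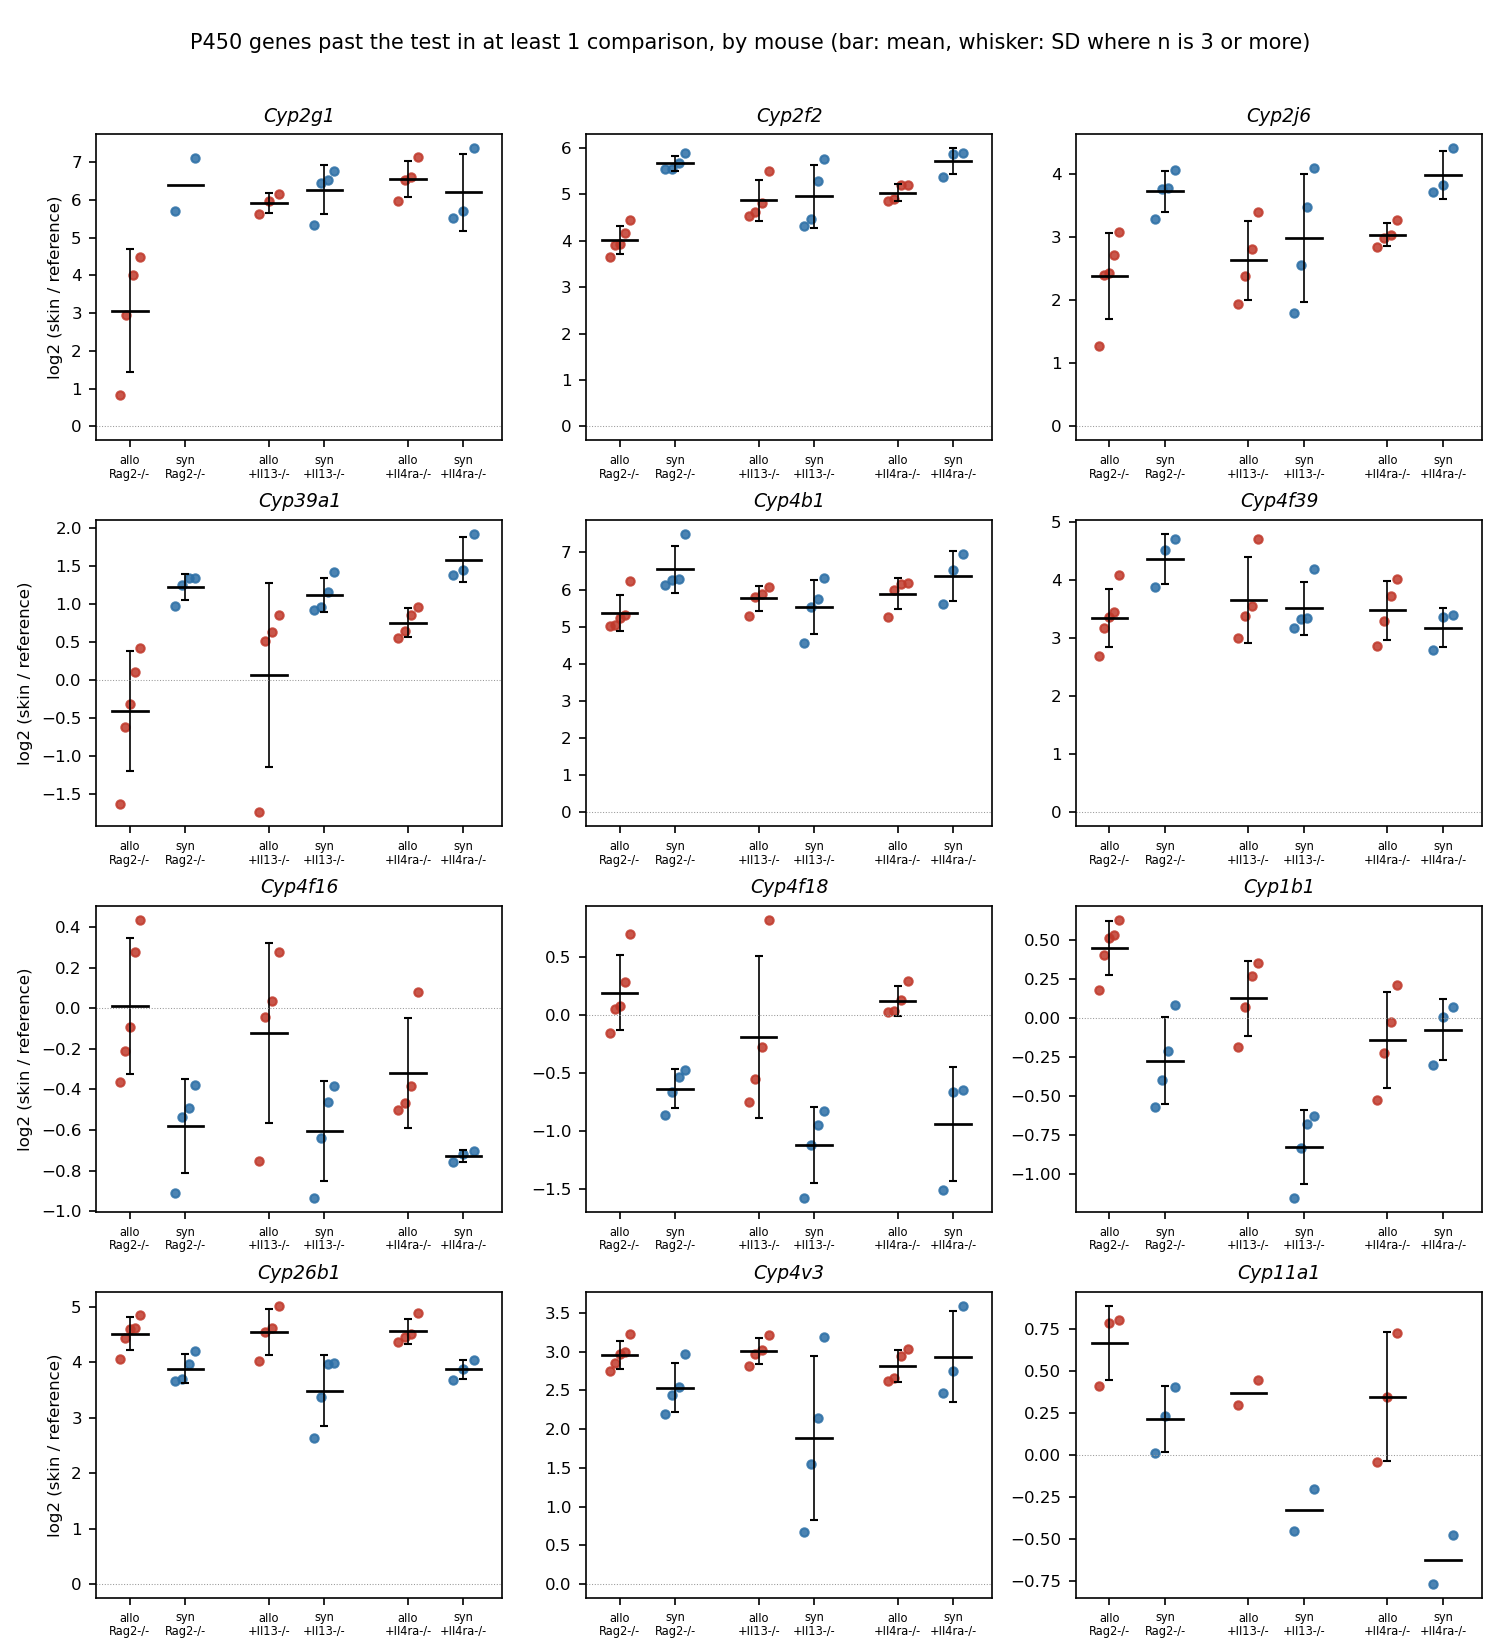
Log2 ratio of skin to reference (vertical axis) in each mouse for the 12 P450 genes that passed in at least 1 comparison, with allo mice in red left of syn mice in blue for each kind of recipient. The bar is the mean and the whisker the SD where at least 3 mice were measured. Cyp2f2 shows no overlap in Rag2-/- recipients (3.66 to 4.45 in allo, 5.54 to 5.89 in syn mice), and Cyp4f18 shows none in any recipient.

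Family 1 holds the targets of the aryl hydrocarbon receptor, a sensor of planar aromatic compounds. Cyp1b1, which also hydroxylates oestradiol, had 0.51, 0.17, 0.53, 0.40 and 0.63 in allo mice, against 0.08, -0.40, -0.21 and -0.57 in syn mice of Rag2-/- recipients. The groups did not overlap, and the rise was 0.72 (SE 0.17, limma adjusted p = 0.00292). Another Cyp1b1 probe gave 0.14 in these recipients, and the call was lost with the median over probes (0.50) and with exact 0 kept (0.35). Cyp1a1, the most widely used marker of that receptor's activity, pointed the other way without passing: 3.57 ± 0.87 (SD, n = 4) in allo and 4.82 ± 0.24 (SD, n = 3) in syn mice (log2 -1.25, limma adjusted p = 0.0797). Family 3, known for the metabolism of drugs and steroids in liver, had 5 members with 3 tested, and none passed in any donor comparison (lowest adjusted p in Rag2-/- recipients 0.403, for Cyp3a11).

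Among sterol enzymes, Cyp39a1, an oxysterol hydroxylase, had -0.31, -1.63, 0.10, 0.41 and -0.62 in allo mice, against 1.25, 0.97, 1.34 and 1.34 in syn mice of Rag2-/- recipients. No allo mouse reached the syn mice, which lay close together. The means were -0.41 ± 0.79 (SD, n = 5) in allo and 1.22 ± 0.18 (SD, n = 4) in syn mice, a 3.10-fold lower ratio in allo (log2 -1.63, SE 0.40, limma adjusted p = 0.00499). Both probes of Cyp39a1 gave like differences, -1.51 and -1.75. Cyp27a1 and Cyp46a1, which hydroxylate cholesterol's side chain, did not pass. Of the 3 tested steroid hormone enzymes and Cyp27b1, 0 passed in these recipients.

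The calls were set against the number series of the Rag2-/- mice. Series 57 held 2 allo and 3 syn mice, and series 61 held 3 allo mice and 1 syn mouse. Cyp2j6 differed by -1.87 within 57 and -0.65 within 61, and Cyp39a1 by -2.16 and -1.37. Cyp4b1 differed by -1.09 within 57 and -1.97 within 61, Cyp4f18 by 1.05 and 0.86, Cyp4f16 by 0.76 and 0.32, and Cyp1b1 by 0.52 and 1.09. Cyp2g1 and Cyp4f39 could be compared within series 57 alone (-4.52 and -1.34), since syn mouse 6153 of series 61 gave no value for them. All 9 genes kept their direction within series 57. All 7 that could be compared did within series 61, where a single syn mouse stood for its group. The calls came from these same mice, so the shared direction is not separate evidence.

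Lists of cell type markers moved in the same comparison, with levels given as the mean over the listed genes measured in all mice. Of all genes, 12.6% rose and 15.6% fell in it. Keratinocyte markers fell in 3 of 6 genes, with a mean ratio of 4.51 to 5.03 in allo and 5.03 to 5.54 in syn mice. Adipocyte markers fell in 6 of 8 tested genes, with 4.29 to 4.61 in allo and 5.14 to 5.52 in syn mice, and muscle markers fell in 4 of 7. Macrophage and T cell markers rose in all tested genes, 9 of 9 and 7 of 7, and macrophage markers averaged 2.88 to 3.59 in allo and 0.42 to 0.76 in syn mice. Of 7 tested sebaceous markers 1 rose, with 2.38 to 3.31 in allo and 3.13 to 3.29 in syn mice. Their part in the P450 differences was not tested.

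In Il13-deficient recipients 4 of the 40 P450 genes rose and 0 fell. This is 10% of the members, against 16.3% of all genes called; 9.19% of all genes rose and 7.11% fell. Their median difference was 0.08, and that of all genes -0.05. Cyp1b1 rose, with 0.27, 0.07, -0.19 and 0.35 in allo mice, against -0.68, -0.63, -1.16 and -0.84 in syn mice (log2 0.95, SE 0.18, limma adjusted p = 0.00052). Its second probe gave 0.80 here. Cyp26b1, the retinoic acid hydroxylase, had 4.54, 4.02, 4.62 and 5.03 in allo mice, against 3.97, 3.37, 4.0 and 2.63 in syn mice. The groups met closely without overlap, and the rise was 1.06 (SE 0.26, limma adjusted p = 0.00594).

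Cyp4f18 had -0.55, 0.82, -0.74 and -0.27 in allo mice, against -0.95, -0.83, -1.12 and -1.58 in syn mice of Il13-deficient recipients (log2 0.93, SE 0.27, limma adjusted p = 0.0206). Cyp4v3, the counterpart of human CYP4V2, a fatty acid hydroxylase of the retina, averaged 3.01 ± 0.17 (SD, n = 4) in allo and 1.89 ± 1.06 (SD, n = 4) in syn mice (log2 1.12, SE 0.34, limma adjusted p = 0.0278), and the groups overlapped. Its syn values were 3.19, 1.54, 2.14 and 0.67, with mice 6229 and 6234 lowest, and its call was lost without 6224, 6229, 6232 or 6234 alone. Without these 2 mice Cyp26b1 differed by 0.57, Cyp4f18 by 0.85 and Cyp4v3 by 0.34, and none of the 3 passed; Cyp1b1 still passed, and Cyp3a13 passed as lower. In that setting 2 P450 genes were called, against 1432 of all 14299 genes tested. Leaving out mouse 6224 or mouse 6234 alone gave 2 P450 calls, and leaving out mouse 6226 gave 7. These counts are not set against the share of all genes called in the same settings. They therefore do not show a change particular to P450 genes. Hair follicle markers fell in 7 of 8 tested genes in this comparison, with a mean ratio of 0.05 to 0.74 in allo and 1.41 to 5.69 in syn mice, while macrophage (9 of 9) and T cell (7 of 7) markers rose; without mice 6229 and 6234 the hair follicle count was 2 of 8, and macrophage and T cell markers still rose in 9 of 9 and 7 of 7. Their part was not tested.

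In Il4ra-deficient recipients 2 of the 40 P450 genes rose and 0 fell, 5% of the members against 9.21% of all genes called (5.91% higher and 3.31% lower). Cyp4f18 had 0.03, 0.03, 0.13 and 0.30 in allo mice, against -0.67, -1.51 and -0.65 in syn mice, with no overlap (log2 1.06, SE 0.29, limma adjusted p = 0.026). Cyp11a1, the first enzyme of steroid hormone synthesis, had -0.04, 0.73 and 0.35 in 3 allo mice, against -0.77 and -0.48 in 2 syn mice (log2 0.97, SE 0.23, limma adjusted p = 0.0245). All of its values recurred as in dim spots, and another Cyp11a1 probe gave a difference of -0.20. Cyp11a1 also lost its call with exact 0 kept, with the median over probes and without mouse 4534, and Cyp4f18 lost it without 5717 or 5720. Without mouse 5718 neither gene passed (0 calls). Within series 45 and 57 Cyp4f18 differed by 0.70 and 1.29, and Cyp11a1 by 1.12 and 0.83. Of the genes that fell in Rag2-/- recipients, Cyp2f2, Cyp2j6, Cyp39a1 and Cyp4b1 were lower here without passing (-0.68, -0.94, -0.83 and -0.47). Only for Cyp4b1 did the allo and syn values of these overlap, but the share of all genes without overlap is not given here. Other members that did not pass, such as Cyp2c37, Cyp2d22 and Cyp3a13, also had no overlap. Cyp2g1 and Cyp4f39 were higher here by 0.36 and 0.29 without passing. Macrophage markers rose in 8 of 9 genes and T cell markers in 6 of 7 here, and their part was not tested.

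Cyp4f18 was thus the only P450 gene that passed in all 3 donor comparisons, which share no mice: differences of 0.83, 0.93 and 1.06 in Rag2-/-, Il13-deficient and Il4ra-deficient recipients, and in each the allo values lay wholly above the syn values. Each of the 3 calls was lost when certain single mice were left out: 5704 or 6153 in Rag2-/-, 6224 or 6234 in Il13-deficient, and 5717, 5718 or 5720 in Il4ra-deficient recipients. Of the values of Cyp4f18, 75% recurred as in dim spots. With recurring values as not measured, Cyp4f18 had too few mice to be tested. The shares of all genes that passed, or did not overlap, in all 3 comparisons are not given here. Cyp26b1 was higher in allo mice by 0.63 in Rag2-/- recipients (limma adjusted p = 0.0585) and by 1.06 in Il13-deficient recipients. In Il4ra-deficient recipients it was higher by 0.69 (adjusted p = 0.127), and only the Il13-deficient value passed. The Rag2-/- value passed under 11 alternatives, 6 of them with a single mouse left out. Of those mice, 6224, 6225, 6230 and 6234 lie outside that comparison, as do mice 6229 and 6234, left out together in another alternative. Cyp39a1 was lower by 1.63, 1.05 (limma adjusted p = 0.102) and 0.83 (adjusted p = 0.279), with only the first past the test.

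The difference between donor effects was tested directly. No P450 gene passed for Il13-deficient against Rag2-/- recipients, where 0.0135% of all genes did (2 genes), and none for Il4ra-deficient against Rag2-/- recipients, where 0% did. At an unadjusted p under 0.05 the limma fit had 7 P450 genes (2373 of all genes) in the first test and 5 (730 of all genes) in the second. The members' median change was 0.35 for Il13-deficient and 0.23 for Il4ra-deficient recipients, against 0.04 and 0.02 over all genes. The first of these rests on the syn group with mice 6229 and 6234. Without these mice the members' median donor difference in Il13-deficient recipients was negative, as it was in Rag2-/- recipients. Cyp2f2 came nearest in the first: its donor difference was -0.09 in Il13-deficient and -1.64 in Rag2-/- recipients, a change of 1.55 (SE 0.36, limma adjusted p = 0.10). It passed when syn mouse 6225 was left out, with a change of 1.82, a setting in which 5.80% of all genes passed. Without mice 6229 and 6234 the donor difference of Cyp2f2 in Il13-deficient recipients was -0.65 and the change 0.99 (limma adjusted p = 0.675). Cyp2g1 had donor differences of -0.36 in Il13-deficient and 0.36 in Il4ra-deficient recipients, against -3.34 in Rag2-/- recipients, and neither change passed (2.98, limma adjusted p = 0.20, and 3.70, adjusted p = 0.773).

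Recipients given allogeneic cells were compared with each other. The allo Rag2-/- mice of this comparison are those of the donor comparison above, so the values are not separate evidence. Cyp2g1 was the single P450 gene to pass for Il4ra-deficient against Rag2-/- allo mice, where 0.805% of all genes passed (0.271% higher and 0.534% lower). It had 6.60, 5.97, 7.15 and 6.52 in Il4ra-deficient allo mice, against 2.94, 0.82, 4.01 and 4.50 in Rag2-/- allo mice, and the groups lay more than 1 log2 unit apart. Cyp2g1 was 11.2-fold higher in Il4ra-deficient mice (log2 3.49, SE 0.63, limma adjusted p = 0.0224). Its second probe differed by 2.24 in the same direction, from 2 mice a group. The call was lost without mouse 5701, 5718 or 5720, with exact 0 kept and with the median over probes, and Cyp2g1 could not be tested without syn mouse 5702 or 5703. Cyp2f2, at 5.04 ± 0.18 (SD, n = 4) in Il4ra-deficient and 4.02 ± 0.30 (SD, n = 5) in Rag2-/- allo mice, did not pass (log2 1.01, limma adjusted p = 0.0592). It passed under 8 alternatives, 4 of which left out a single Il13-deficient mouse (6224, 6225, 6226 or 6234) outside this comparison. The others were quantile normalization, genes measured in all mice, recurring values as not measured, and leaving out mice 6229 and 6234, also outside it. T cell markers fell in 3 of 7 genes in this comparison, with a mean ratio of 0.91 to 1.19 in Il4ra-deficient and 1.85 to 2.71 in Rag2-/- mice, and adipocyte markers, none of which passed, averaged 5.08 to 5.27 in Il4ra-deficient and 4.29 to 4.61 in Rag2-/- mice. Their part was not tested.

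**Figure D3:**
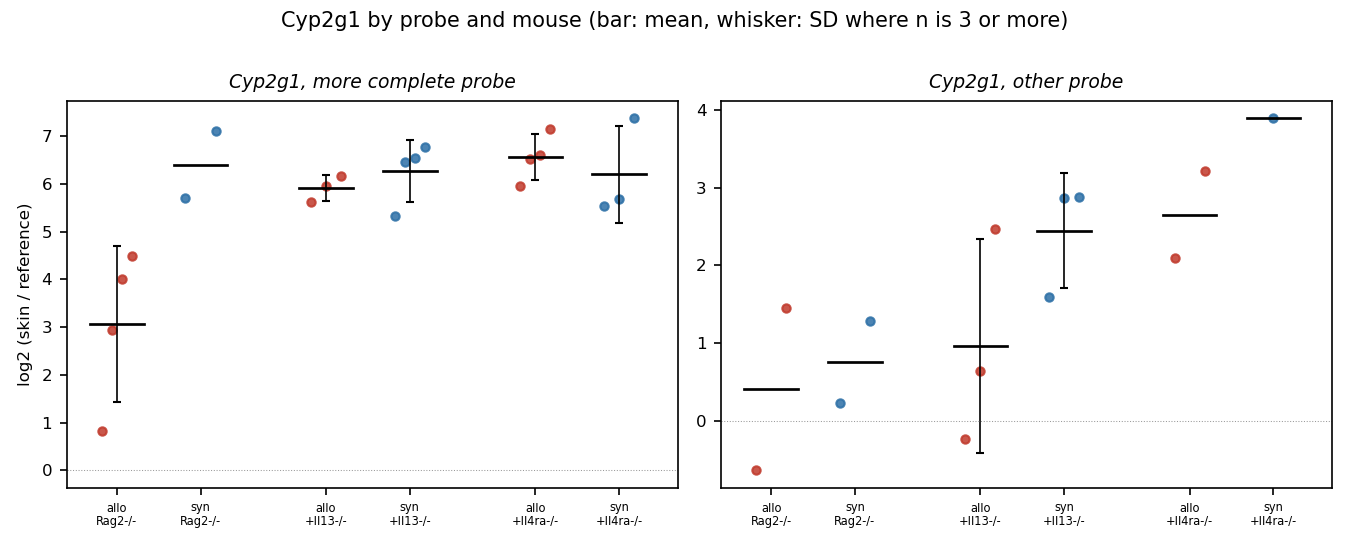
Log2 ratio of skin to reference (vertical axis) of Cyp2g1 in each mouse for its more complete probe (left) and its other probe (right), with allo mice in red left of syn mice in blue for each kind of recipient. The bar is the mean and the whisker the SD where at least 3 mice were measured. On the left the 4 allo Rag2-/- mice (0.82 to 4.50) lie below all other mice; on the right 2 allo Rag2-/- mice read -0.64 and 1.45.

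For Il13-deficient against Rag2-/- allo mice 0% of all genes and 0 P450 genes passed (5 P450 genes and 850 of all genes at an unadjusted p under 0.05, limma). Cyp2g1 had 6.16, 5.96 and 5.62 in 3 Il13-deficient allo mice and differed by 2.85 from Rag2-/- allo mice without passing (adjusted p = 0.332). Among syn mice, 0.284% of all genes and 0 P450 genes passed for Il13-deficient against Rag2-/- recipients (10 P450 genes and 3006 of all genes at an unadjusted p under 0.05, limma). The lowest adjusted p was 0.0834, for Cyp4f13. Without syn mouse 6225, 5 of 38 tested P450 genes and 12.5% of all genes passed; without 6230, 1 P450 gene and 6.69% of all genes passed, and without 6153, 1 and 0.204%. Without mice 6229 and 6234, 0 P450 genes and 3 of all genes passed, and Cyp2f2 differed by -0.14 there, against -0.70 with all mice. For Il4ra-deficient against Rag2-/- syn mice 0% of all genes and 0 P450 genes passed (2 P450 genes and 430 of all genes at an unadjusted p under 0.05, limma).

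Cyp7b1, which turns 25-hydroxycholesterol into the attractant read by the receptor Gpr183 on lymphocytes and dendritic cells, was measured in too few syn mice to be tested. It had 5.51, 6.38, 4.92 and 5.97 in 4 allo Rag2-/- mice, against 3.95 in 1 syn mouse. In Il13-deficient recipients it had 5.14, 4.16 and 4.79 in allo mice, against 4.79 and 1.58 in syn mice. In Il4ra-deficient recipients it had 5.04 and 5.58 in allo mice, against 2.82 and 3.88 in syn mice. Over all recipients it was measured in 9 of 13 allo mice, from 4.16 to 6.38, and in 5 of 11 syn mice, from 1.58 to 4.79, so the ranges overlapped. The other untested members with mostly distinct values were Cyp2b10, Cyp2b13, Cyp2j13 and Cyp3a25.

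The genes around Cyp7b1 were a list of 10, 7 of them tested. In Rag2-/- recipients 3 of the 7 rose and 0 fell, against 12.6% and 15.6% of all genes. In Il13-deficient recipients 4 rose and 1 fell, against 9.19% and 7.11% of all genes. In Il4ra-deficient recipients 2 rose and 0 fell, against 5.91% and 3.31% of all genes. Ch25h, which makes 25-hydroxycholesterol, rose by 3.65 (SE 0.48, limma adjusted p = 1.06e-05), 2.84 and 3.15 in Rag2-/-, Il13-deficient and Il4ra-deficient recipients. In Rag2-/- recipients Ch25h lay at 2.34 to 3.59 in allo and -1.55 to 0.23 in syn mice. Abcg1, a sterol exporter, rose by 1.60, 1.72 and 1.72. Gpr183 rose by 1.34 and 1.58 in Rag2-/- and Il13-deficient recipients and was higher by 0.84 without passing in Il4ra-deficient recipients (limma adjusted p = 0.143). Hsd3b7, which oxidises the product of Cyp7b1, rose in Il13-deficient recipients by 0.72, and Srebf2, a regulator of sterol synthesis, fell there by 0.38. Without mice 6229 and 6234, 3 of the list rose and 0 fell in Il13-deficient recipients: Ch25h, Abcg1 and Gpr183 passed (2.34, 1.72 and 1.27), while Hsd3b7 differed by 0.21 (limma adjusted p = 0.403) and Srebf2 by -0.42 (adjusted p = 0.076).

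The retinoid list around Cyp26b1 had 13 genes with 10 tested, and 0 rose in any donor comparison. In Rag2-/-, Il13-deficient and Il4ra-deficient recipients 3, 2 and 2 fell, against 15.6%, 7.11% and 3.31% of all genes. Rbp4, the carrier of retinol, fell by 3.72 (SE 0.40, limma adjusted p = 7.21e-07), 1.55 and 2.12. Aldh1a1, which makes retinoic acid, fell by 1.38 and 1.00 in Rag2-/- and Il4ra-deficient recipients and differed by 0.16 without passing in Il13-deficient recipients. Crabp1, which binds retinoic acid in cells, fell by 0.89 and 0.98 in Rag2-/- and Il13-deficient recipients and differed by 0.08 without passing in Il4ra-deficient recipients. Without mice 6229 and 6234, Rbp4 and Crabp1 still fell in Il13-deficient recipients (-1.74 and -1.38), and Aldh1a1 differed by -0.41 without passing. Cyp26a1, the other tested Cyp26 gene, had recurring values throughout and did not pass. Rbp4 was also higher in Il4ra-deficient than in Rag2-/- allo mice (log2 2.29, SE 0.40, limma adjusted p = 0.0161).

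**Figure D4:**
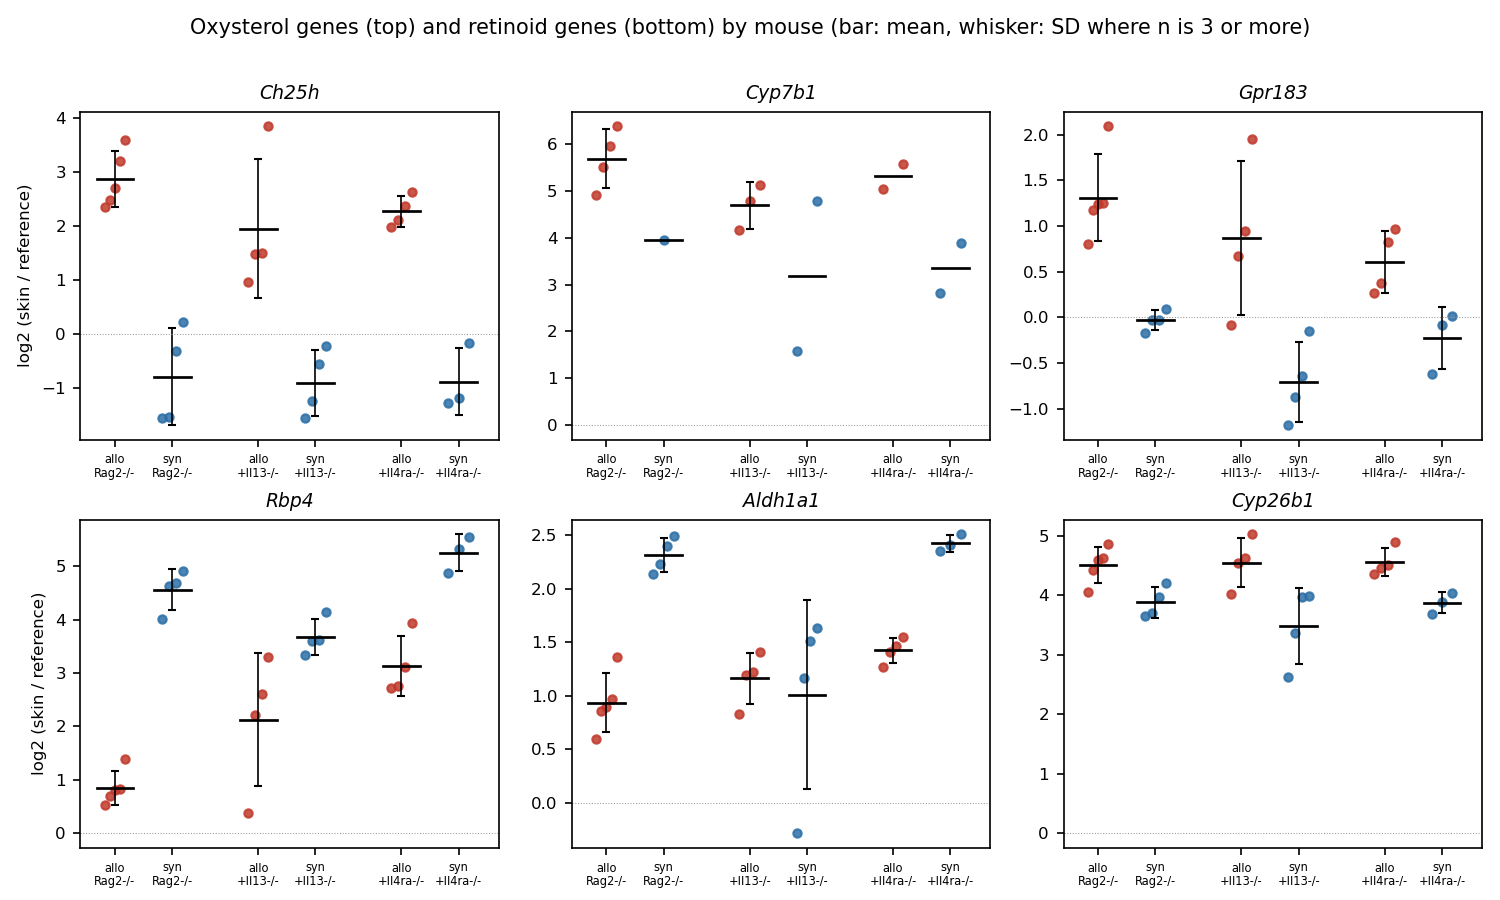
Log2 ratio of skin to reference (vertical axis) in each mouse for 3 oxysterol genes (top) and 3 retinoid genes (bottom), with allo mice in red left of syn mice in blue for each kind of recipient. The bar is the mean and the whisker the SD where at least 3 mice were measured. Ch25h is higher in every allo than in every syn mouse, and Rbp4 is lowest in allo Rag2-/- mice (0.53 to 1.38) apart from 1 allo Il13-deficient mouse at 0.37.

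The list of redox partners and heme genes covers electron transfer and heme turnover, and not every gene on it serves every P450 enzyme. Of 10 listed genes 8 were tested, namely Cyb5a, Cyb5b, Cyb5r3, Fdx1, Pgrmc1, Hmox1, Alas1 and Fech. Of the 8 tested, 1 rose and 2 fell in Rag2-/- recipients, against 12.6% and 15.6% of all genes. The list median there was -0.37, against -0.08 over all genes. In Il13-deficient recipients 1 rose, against 9.19% of all genes, and in Il4ra-deficient recipients 1 fell, against 3.31%. Fech, which inserts iron into heme, fell by 0.99 in Rag2-/- (limma adjusted p = 0.00132) and by 0.82 in Il4ra-deficient recipients. Fdx1, the electron carrier of mitochondrial P450 enzymes, fell by 0.56 in Rag2-/- recipients (limma adjusted p = 0.00397). Hmox1, which breaks heme down, rose by 1.04 in Rag2-/- (limma adjusted p = 0.00075) and 1.19 in Il13-deficient recipients. Without mice 6229 and 6234, Hmox1 still rose in Il13-deficient recipients (1.15), and Fdx1 (-0.49) and Fech (-0.75) passed there as lower.

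Of 17 tested receptors that regulate P450 genes, 1 rose and 2 fell in Rag2-/- recipients, against 12.6% and 15.6% of all genes. In Il13-deficient recipients 2 rose and 1 fell, against 9.19% and 7.11% of all genes. In Il4ra-deficient recipients 0 rose and 1 fell, against 5.91% and 3.31% of all genes. Ahrr, itself a target and a repressor of the aryl hydrocarbon receptor, rose by 1.20 (limma adjusted p = 0.00632) and 1.61 in Rag2-/- and Il13-deficient recipients, in which Cyp1b1 also rose. Cyp1a1, a further target, differed in them by -1.25 and 0.19 and passed in neither (limma adjusted p = 0.0797 and 0.861). Without mice 6229 and 6234, 0 receptors rose and 1 fell in Il13-deficient recipients, and Ahrr differed by 0.88 there (limma adjusted p = 0.0658). Of 5 tested phase II and epoxide enzymes 2 fell in Rag2-/- recipients: Ephx2, which hydrolyses the epoxides that family 2 enzymes make, by 1.21, and Sult1a1, a sulfotransferase, by 1.63. In Il13-deficient recipients Sult1a1 rose by 1.45, and without mice 6229 and 6234 it differed by 0.90 and did not pass (limma adjusted p = 0.0978). Ephx2 was higher in Il4ra-deficient than in Rag2-/- allo mice by 1.02 (limma adjusted p = 0.0496). Among P450 genes with other symbols, Tbxas1, the thromboxane synthase of platelets and macrophages, rose by 2.20, 2.30 and 1.97 in the 3 donor comparisons (2.21 in Il13-deficient recipients without mice 6229 and 6234), and Cyp51 and Ptgis did not pass.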

How the data were processed

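Per the labels' protocols, skin RNA was isolated with Trizol, cleaned on columns, amplified with a low-input kit and hybridised with a reference RNA. What the authors deposited is 1 log2 ratio per probe and array, normalized by them; the sources used here do not give the scanner software, background correction or normalization method. Spacing of recurring values fitted log2: ratio pairs of 2, 1.5 and 1.33 were found 53, 38 and 29 times in 5320 pairs, against 2, 10 and 9 for natural and 15, 11 and 12 for base 10 logarithms. The sign was turned to skin over reference from the dyes and 2 lists: 9 of 9 epidermal genes then lay above 0, and 1 of 7 dividing-cell genes. Array pairs correlated at 0.595 to 0.928 across probes, and array medians of nonzero values lay between -0.039 and 0.144.

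Of 41174 probes, 32664 had 1 gene name, 45 several and 8465 none; 0 symbols changed against GRCm38.p6. Where a gene had several probes, those with the fewest missing mice were averaged, provided they lacked the same mice. Mouse 5702 had 3 arrays, and 5703 and 6232 had 2 each. Limma 3.58.1 in R 4.3.3 (lmFit, eBayes, all 6 groups, two-sided) tested the 14783 genes with values from 2 or more mice in all groups; the fit was tested on simulated data. Spot intensities were not analysed here, and precision is limited by how many arrays there are. Named genes are the 12 members past the threshold in at least 1 comparison and those the member rule names (Cyp2g1, Cyp26b1, Cyp7b1), 13 in all. Alternatives and single mice were examined for the 12 of these that were tested, all but Cyp7b1. The rule let the member with the lowest adjusted p of each role be named too; any other member named was chosen after its values were seen. Gene lists without mice 6229 and 6234 were added after seeing the data. Members, roles and gene lists were chosen with earlier results of these data known.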

Additional observations from a re-analysis of the deposited data

Results flagged for a closer look

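In groups of 4 or 5 measured mice, the gap between an extreme mouse and its nearest neighbour was compared with the range of the group by Dixon's 95% limit, over 53 groups of the 12 P450 genes that passed in at least 1 comparison and Cyp7b1. Chance flags about 1 group in 20, and 3 of 53 were flagged. Cyp39a1 in allo Il13-deficient mice lay at -1.74 in mouse 6224 and at 0.52 to 0.86 in the other 3 mice. Cyp4b1 in allo Rag2-/- mice lay at 6.22 in mouse 6154 and at 5.01 to 5.32 in the other 4. Cyp4b1 in syn Rag2-/- mice lay at 7.50 in mouse 6153 and at 6.13 to 6.28 in the other 3. Mouse 6224 was the lowest of its 4 in 8 of the 19 P450 genes measured in all of them, its sebaceous markers averaged 1.66 against 3.02 to 3.14 in the other 3 mice, and the part of this was not tested.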

How the results depend on the processing

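Counts below are of P450 genes alone unless a share of all genes is given. On their own they do not show a sensitivity particular to these genes. The count of P450 genes past the test in Rag2-/- recipients was 9 and ran from 6 to 11 with single mice left out. It was 4 with exact 0 kept as a value, where Cyp1b1, Cyp2g1, Cyp2j6, Cyp4f16 and Cyp4f39 lost their calls and Cyp4f39 turned to 0.0778 on the log2 scale; with the number series as a block it was 8 (Cyp4f16 lost). Keeping 0 sets unmeasured ratios to equality; beyond that the cause was not tested. In Il13-deficient recipients the count was 4, ran from 2 to 7 with single mice left out and was 2 without mice 6229 and 6234. The range with single mice left out is of P450 genes alone and is not set against all genes. In Il4ra-deficient recipients it was 2, ran from 0 to 2 with single mice left out, and was 1 with exact 0 kept, with the first array of each mouse (Cyp11a1 at -0.20, its value then coming from its other probe), with genes measured in all mice and with recurring dim values as not measured, and 0 without mouse 5718. With recurring dim values as not measured, neither Cyp4f18 nor Cyp11a1 could be tested, so the 1 call there was of another member. In Il4ra-deficient recipients the highest count over the other settings was 3. Cyp2f2 passed there as lower and Cyp26b1 as higher without mice 6229 and 6234, which lie outside that comparison. Cyp2j6 passed as lower with the median over probes. The change of the donor effect by Il13 ran from 0 to 1 calls with single mice left out. For Il4ra-deficient against Rag2-/- allo mice the count was 1, ran from 0 to 3 with single mice left out, was 0 with exact 0 kept, with the first array (where Cyp2g1 had too few mice to be tested), with the median over probes and without mouse 5718, and was 2 with quantile normalization, with recurring values as not measured and without mice 6229 and 6234. Among syn mice the Il13-deficient count ran from 0 to 5. The members' median difference in Rag2-/- recipients was -0.58 with recurring values as not measured, and in Il13-deficient recipients -0.27 without mice 6229 and 6234, where it had been 0.08. Within number series, series 57 of Rag2-/- recipients gave 4 calls. The members called over all mice had the same sign in 9 of 9 cases in series 57 and 7 of 7 in series 61. Those calls came from these same mice, so the shared sign is not separate evidence. In Il4ra-deficient recipients series 45 and 57 gave 0 calls each. No paired analysis was possible because replicate numbers only follow the order of the samples.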
